A study of Mus musculus with 7 samples.

Results

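The genes described here are 10 Wnt-responsive receptors and stem genes of the intestinal crypt, Ephb2, Ephb3, Cd44, Tnfrsf19, Rnf43, Znrf3, Ascl2, Smoc2, Axin2 and Olfm4. They were taken as the rows of the count table whose gene name equals one of these symbols, which gave 10 of the 38293 genes listed. In the crypt, Wnt ligands bind Frizzled receptors and LRP co-receptors, which keeps beta-catenin from being degraded, so that it enters the nucleus and drives transcription with TCF factors. Stem cells at the crypt base depend on this signal, and it falls away as cells move up towards the villus. Its target genes include receptors that hold cells in their position along the crypt as well as inhibitors that feed back on the signal itself.

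Each library holds the RNA of 1 mouse, taken from ileal tissue that was scraped off the muscle, so that epithelial and lamina propria cells are read together. The animals were 8-week-old C57BL/6NRJ males in single cages, and a run-in of 1 week on the control diet (AIN93G, 40% of energy as fat) preceded the experiment in every one. The 2 diets, fed for the next 2 weeks, were that control diet at 0.38% total cystine (normal cys, 4 mice) and a version at 0.08%, with alanine standing in for the added cystine (low cys, 3 mice). The comparison asks whether cystine restriction changes gene expression in the small intestine. Total counts per library ran from 19712355 to 22412703 on the normal cys diet and from 14888760 to 21942518 on the low cys diet. The ileal origin of the tissue was seen in a marker, the ileal bile acid-binding protein gene Fabp6. It stood at a mean of 5392 CPM (4048 to 7454) on the normal cys diet and 4030 CPM (2848 to 5459) on the low cys diet. Other enterocyte genes varied more between libraries, with Fabp1 from 59.1 to 427 CPM and Apoa4 from 653 to 6720 CPM. Whether every library covers the same stretch of ileum was not tested. Levels are given as CPM, the count scaled to the size of the library, with library sizes corrected by the TMM method.

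Across the table, 14869 genes had enough counts to be tested, and all 10 crypt genes were among them. With the edgeR quasi-likelihood test, 0 of the 10 genes had an adjusted p-value (Benjamini-Hochberg over all genes tested) under 0.05, against 0% of all genes tested, and the adjusted p-values of the 10 lay between 0.794 and 0.839. At an unadjusted p-value under 0.05, 0 of the 10 were higher on the low cys diet, against 2.66% of all genes tested, and 0 were lower, against 2.83%. In the whole table edgeR gave 0 genes at an adjusted and 817 at an unadjusted p-value under 0.05, and limma-voom on the same genes gave 0 and 935. DESeq2, which was run without the filter on low counts and so on 22796 genes, gave 16 and 1024, and edgeR without that filter gave 0 and 1112. DESeq2 and limma-voom also gave 0 of the 10 genes at an adjusted p-value under 0.05. At an unadjusted p-value under 0.05, DESeq2 had 2 of the 10 higher (Ephb3 and Cd44), against 2% of all genes it tested, and limma-voom 4 (Ephb3, Cd44, Tnfrsf19 and Olfm4), against 3.5%. Without normal cys 1, 5 of the 10 (Ephb2, Ephb3, Tnfrsf19, Smoc2 and Olfm4) were higher at an unadjusted edgeR p-value under 0.05, and the share of all genes tested rose as well, to 6.3%. The estimate was above 0 for 8 of the 10 genes, against 51.2% of all genes tested, and below 0 for Rnf43 and Axin2. The median log2 fold change of the 10 genes was 0.64 and that of all genes tested was 0.0072. In none of the 10 genes did the low cys libraries lie all above the normal cys libraries, against 3.32% of all genes tested, or all below them, against 3.51%. In scrapings of mixed cells, a level that rests on fewer crypt cells and one that rests on less RNA per crypt cell cannot be told apart.

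**Figure D1:**
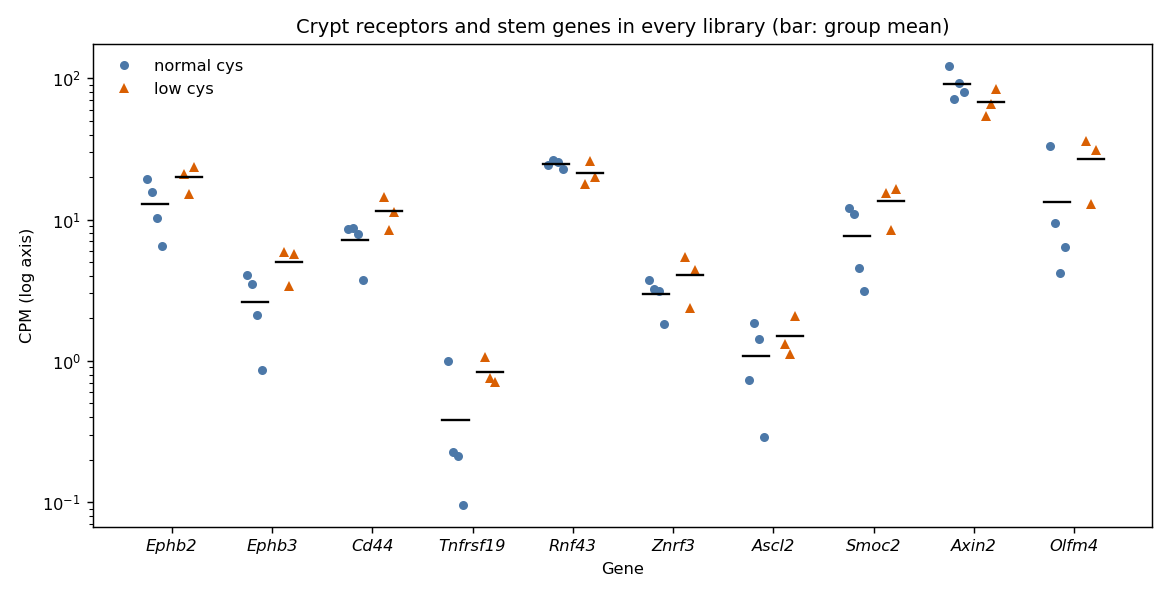
CPM of each of the 10 crypt genes in the 4 normal cys libraries (circles) and the 3 low cys libraries (triangles) on a log axis, with a bar at each group mean. The diets overlap in every gene, and the normal cys libraries spread from 4.21 to 33.2 CPM in Olfm4 but only from 22.6 to 26.6 CPM in Rnf43.

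EphB2 and EphB3 are receptor tyrosine kinases that respond to ephrin-B ligands on neighbouring cells and keep crypt cells in their place. Ephb2 (chromosome 4, 136647539 to 136835988, GRCm38) stood at 19.3, 15.6, 10.3 and 6.50 CPM in normal cys 1 to 4 and at 21.0, 15.2 and 23.5 CPM in low cys 1 to 3. Low cys 1 and 3 lay above every normal cys library, whereas low cys 2 lay below normal cys 1 and 2. The log2 fold change of Ephb2 was 0.62 (SE 0.34, unadjusted p = 0.0989 with edgeR), and 0.40 without normal cys 4. Ephb3 (chromosome 16, 21204755 to 21223305) stood at 4.02, 3.50, 2.10 and 0.860 CPM in normal cys 1 to 4 and at 5.88, 3.37 and 5.74 CPM in low cys 1 to 3. The libraries fell into the same pattern as for Ephb2, with low cys 1 and 3 highest, normal cys 4 lowest and low cys 2 inside the normal cys range. For Ephb3 the log2 fold change was 0.93 (SE 0.46, unadjusted p = 0.0745 with edgeR).

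The ratio of Ephb2 to Ephb3 counts within a library does not depend on how libraries are scaled. It was 4.79, 4.47, 4.90 and 7.56 in normal cys 1 to 4 and 3.57, 4.50 and 4.09 in low cys 1 to 3. Normal cys 4, the library with the least of both receptors, had the highest ratio, and the diets overlapped only through low cys 2 and normal cys 2. The mean ratio was 5.43 ± 1.43 (SD) on the normal cys diet and 4.05 ± 0.466 on the low cys diet, and the log2 ratio differed by -0.40 (two-sided exact permutation test over the 35 assignments of the libraries, p = 0.0857, where the smallest possible p is 0.0286). Without normal cys 4 the difference was -0.23.

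Of 6 genes of ephrin-B ligands and other EphB receptors, 4 were tested (Efnb1, Efnb2, Efnb3 and Ephb4). Of these 4, 2 had a higher estimate (against 51.2% of all genes tested), 2 a lower one and 0 an unadjusted edgeR p-value under 0.05. The highest levels per kilobase of exon were those of the ligand genes Efnb1 (40.5 CPM per kb) and Efnb2 (21.6 CPM per kb). Efnb1 stood at 142 ± 9.54 CPM on the normal cys diet and 136 ± 5.17 on the low cys diet, and Efnb2 at 99.0 ± 21.0 and 86.0 ± 7.75 CPM (SD). Their log2 fold changes were -0.06 and -0.20. Ephb4, the only receptor gene of this list that was tested and the third in level per kilobase (4.19 CPM per kb), stood at 23.3, 19.1, 11.7 and 9.22 CPM in normal cys 1 to 4 and at 27.9, 19.3 and 25.6 CPM in low cys 1 to 3. Its libraries were ordered like those of Ephb3 at both ends, with low cys 1 highest and normal cys 4 lowest (log2 fold change 0.62, SE 0.30, unadjusted p = 0.0724 with edgeR). Ephb1 and Ephb6 had too few counts to be tested, with at most 1 and 11 counts in a library.

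CD44 is a surface receptor for hyaluronan found on crypt cells, and Tnfrsf19 encodes TROY, a receptor of the TNF receptor superfamily found on crypt stem cells. Cd44 (chromosome 2, 102811141 to 102901665) stood at 8.52, 8.72, 7.89 and 3.73 CPM in normal cys 1 to 4 and at 14.4, 8.50 and 11.4 CPM in low cys 1 to 3. Of the normal cys libraries 1, 2 and 3 lay close together and normal cys 4 lay far below them, while low cys 2 fell just under normal cys 1 and 2. The log2 fold change of Cd44 was 0.67 (SE 0.31), and its unadjusted p-value of 0.0568 was the smallest of the 10 genes with edgeR. Without low cys 2 the log2 fold change of Cd44 was 0.86, at an unadjusted edgeR p of 0.0328, while it was 0.45 (0.0645) without normal cys 4 and 0.48 (0.211) without low cys 1. Tnfrsf19 (chromosome 14, 60963834 to 61046855) rested on few reads, with 19, 5, 4 and 2 counts in normal cys 1 to 4 and 26, 12 and 11 counts in low cys 1 to 3. In CPM these were 0.993, 0.227, 0.210 and 0.0955 on the normal cys diet and 1.06, 0.750 and 0.709 on the low cys diet. All 3 low cys libraries lay above normal cys 2, 3 and 4, and normal cys 1 alone reached into their range. The log2 fold change of Tnfrsf19 was 1.16, the highest of the 10, with the largest standard error as well (SE 0.68, unadjusted p = 0.124 with edgeR). Without normal cys 1 it was 2.22, at an unadjusted edgeR p of 0.00209, while it was 0.84 (0.209) without normal cys 4, 0.95 (0.296) without low cys 1 and 0.96 (0.241) without normal cys 3.

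RNF43 and ZNRF3 are membrane E3 ubiquitin ligases that remove Frizzled receptors from the cell surface and so dampen the Wnt signal; R-spondins relieve this when they bind LGR4, LGR5 or LGR6. Rnf43 (chromosome 11, 87662722 to 87735539) stood at 24.6, 26.6, 25.4 and 22.6 CPM in normal cys 1 to 4 and at 17.9, 26.2 and 20.0 CPM in low cys 1 to 3. It was the steadiest of the 10 genes on the normal cys diet, where the highest library exceeded the lowest 1.17-fold. Low cys 1 and 3 lay below every normal cys library, on the opposite side from Ephb2 and Ephb3, and low cys 2 lay within them. Normal cys 4 was the lowest of the normal cys libraries for Rnf43 as it was for Ephb2 and Ephb3. For Rnf43 the log2 fold change was -0.22 (SE 0.15, unadjusted p = 0.196 with edgeR). It was -0.09 without low cys 1, -0.08 with total counts in place of TMM, and -0.36 without low cys 2, where the unadjusted edgeR p was 0.0411. Znrf3 (chromosome 11, 5276324 to 5444847) stood at 3.71, 3.22, 3.10 and 1.82 CPM in normal cys 1 to 4 and at 5.47, 2.37 and 4.38 CPM in low cys 1 to 3. Here low cys 1 and 3 were above every normal cys library and low cys 2 was below all but normal cys 4 (log2 fold change 0.47, SE 0.35, unadjusted p = 0.212 with edgeR). For Znrf3 the value was 0.20 without low cys 1, 0.29 without normal cys 4 and 0.76 without low cys 2, the last at an unadjusted edgeR p of 0.0504.

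The ratio of Rnf43 to Znrf3 counts was 6.62, 8.24, 8.19 and 12.5 in normal cys 1 to 4 and 3.27, 11.03 and 4.57 in low cys 1 to 3. Low cys 1 and 3 had the lowest ratios of the 7 libraries, and low cys 2 had the highest after normal cys 4. The mean ratio was 8.88 ± 2.51 (SD) on the normal cys diet and 6.29 ± 4.15 on the low cys diet. The log2 ratio differed by -0.66 between the diets (two-sided exact permutation test, p = 0.229, where the smallest possible p is 0.0286). It was -0.28 without low cys 1 and -1.16 without low cys 2.

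Of 11 partners of these ligases, 6 were tested. Of these 6, 3 had a higher estimate (against 51.2% of all genes tested) and 3 a lower one, with 0 at an unadjusted edgeR p-value under 0.05. The highest levels per kilobase were those of the Frizzled receptor gene Fzd5 (160 ± 11.1 CPM on the normal cys diet and 164 ± 12.2 on the low cys diet), the R-spondin receptor gene Lgr4 (118 ± 19.6 and 112 ± 8.20 CPM) and the co-receptor gene Lrp6 (83.3 ± 18.0 and 98.6 ± 3.64 CPM), given as mean ± SD. These levels differed between the diets by log2 fold changes of 0.04 for Fzd5, -0.08 for Lgr4 and 0.24 for Lrp6. The R-spondin genes Rspo1 to Rspo4 and the receptor gene Lgr6 had too few counts to be tested, and Rspo2 and Lgr6 had 0 counts in every library.

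ASCL2 is a transcription factor that maintains the identity of crypt stem cells. Ascl2 (chromosome 7, 142966822 to 142969264) had 14, 41, 27 and 6 counts in normal cys 1 to 4 and 32, 18 and 32 counts in low cys 1 to 3. In CPM these were 0.732, 1.86, 1.42 and 0.287 on the normal cys diet and 1.31, 1.12 and 2.06 on the low cys diet. All 3 low cys libraries lay above normal cys 1 and 4, and only low cys 3 also lay above normal cys 2 and 3. Among the normal cys mice the highest level of Ascl2 was 6.50-fold the lowest, whereas the mean of the low cys mice was 1.39-fold that of the normal cys mice. Its log2 fold change was 0.47 (SE 0.56, unadjusted p = 0.427 with edgeR), the only estimate of the 10 smaller than its standard error. The value for Ascl2 was 0.15 without normal cys 4, 0.18 without low cys 3 and 0.90 without normal cys 2.

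SMOC2 is a secreted matrix protein and OLFM4 a secreted glycoprotein, and both genes are used as markers of crypt base stem cells. Smoc2 (chromosome 17, 14279506 to 14404790) stood at 12.0, 10.9, 4.57 and 3.11 CPM in normal cys 1 to 4 and at 15.5, 8.37 and 16.5 CPM in low cys 1 to 3. Normal cys 1 and 2 lay above low cys 2, and low cys 1 and 3 lay above all others. This gave Smoc2 a log2 fold change of 0.81 (SE 0.46, unadjusted p = 0.114 with edgeR). Olfm4 (chromosome 14, 80000302 to 80021930) stood at 33.2, 9.54, 4.21 and 6.45 CPM in normal cys 1 to 4 and at 36.2, 12.8 and 31.2 CPM in low cys 1 to 3. Low cys 1, low cys 3 and normal cys 1 lay far above the other 4 libraries, among which low cys 2 was the highest. Its mean was 13.4 CPM on the normal cys diet and 26.7 CPM on the low cys diet, but the normal cys mice differed among themselves by 7.90-fold (log2 fold change 1.00, SE 0.68, unadjusted p = 0.174 with edgeR). Without normal cys 1 the log2 fold change of Olfm4 was 1.99, at an unadjusted edgeR p of 0.0013, while it was 0.70 (0.308) without normal cys 3, 0.73 (0.376) without low cys 1 and 0.78 (0.358) without normal cys 4.

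AXIN2 is a scaffold of the complex that degrades beta-catenin, and its gene is a target of the signal that it restrains. Axin2 (chromosome 11, 108920349 to 108950783) stood at 123, 71.4, 92.3 and 80.7 CPM in normal cys 1 to 4 and at 54.4, 66.4 and 83.7 CPM in low cys 1 to 3. Low cys 1 and 2 lay below every normal cys library, and low cys 3 lay above normal cys 2 and 4. The log2 fold change of Axin2 was -0.43 (SE 0.21, unadjusted p = 0.0745 with edgeR). It was nearer to 0 without normal cys 1, the highest library for Axin2 (-0.26), and without low cys 1, the lowest (-0.28). The unadjusted edgeR p of Axin2 was under 0.05 without normal cys 2 (log2 fold change -0.52, 0.0395), without low cys 3 (-0.61, 0.0329) and without a filter on low counts (-0.45, 0.0429). Normal cys 4, which had the lowest level of 7 of the 10 genes, was not the lowest for Axin2, Rnf43 or Olfm4.

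Of 15 genes of the destruction complex and of beta-catenin effectors, 13 were tested. Of these 13, 6 had a higher estimate (against 51.2% of all genes tested) and 7 a lower one, with 0 at an unadjusted edgeR p-value under 0.05. The median log2 fold change of this list was -0.02. Ctnnb1, which encodes beta-catenin, stood at 980 ± 135 CPM on the normal cys diet and 913 ± 18.0 CPM on the low cys diet (SD), and the kinase gene Csnk1a1 at 386 ± 59.6 and 380 ± 15.8 CPM. The kinase gene Gsk3a stood at 110 ± 7.08 and 97.2 ± 14.1 CPM. The estimates of these 3 genes, which had the highest levels of the list per kilobase as well, were -0.10, -0.02 and -0.18 on the log2 scale, each with an unadjusted edgeR p-value of at least 0.203.

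Of 20 other crypt Wnt targets and stem genes, 18 were tested, with a median log2 fold change of 0.40. Of these 18, 14 had a higher estimate, against 51.2% of all genes tested, and 4 a lower one. At an unadjusted edgeR p-value under 0.05, 3 of the 18 were higher, against 2.66% of all genes tested, and 0 were lower, against 2.83%. In 2 of the 18 the low cys libraries lay all above the normal cys libraries, against 3.32% of all genes tested. The largest shift relative to its error was in Slc12a2, which encodes the cotransporter NKCC1 and is high in crypt cells, with 39.0, 30.7, 28.9 and 32.7 CPM in normal cys 1 to 4 and 79.3, 46.0 and 57.2 CPM in low cys 1 to 3. All low cys libraries of Slc12a2 lay above all normal cys libraries (log2 fold change 0.89, SE 0.19, unadjusted p = 0.00114 and adjusted p = 0.794 with edgeR). Nkd1, an inhibitor of Wnt signaling that is itself a target, had 6 to 11 counts in the normal cys libraries and 11 to 21 in the low cys libraries. Its CPM also did not overlap between the diets (log2 fold change 1.20, SE 0.40, unadjusted p = 0.0146 with edgeR), and without low cys 3 the unadjusted p was 0.0917. The growth factor receptor inhibitor gene Lrig1 ranged from 8.69 to 19.9 CPM on the normal cys diet and from 17.5 to 26.2 CPM on the low cys diet, which overlapped (log2 fold change 0.67, SE 0.28, unadjusted p = 0.0431 with edgeR). The p-value of Lrig1 was at or above 0.05 without normal cys 3 (unadjusted p = 0.116 with edgeR), normal cys 4 (0.0721), low cys 1 (0.139) or low cys 3 (0.0974). Notum and Lef1 had too few counts to be tested.

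**Figure D2:**
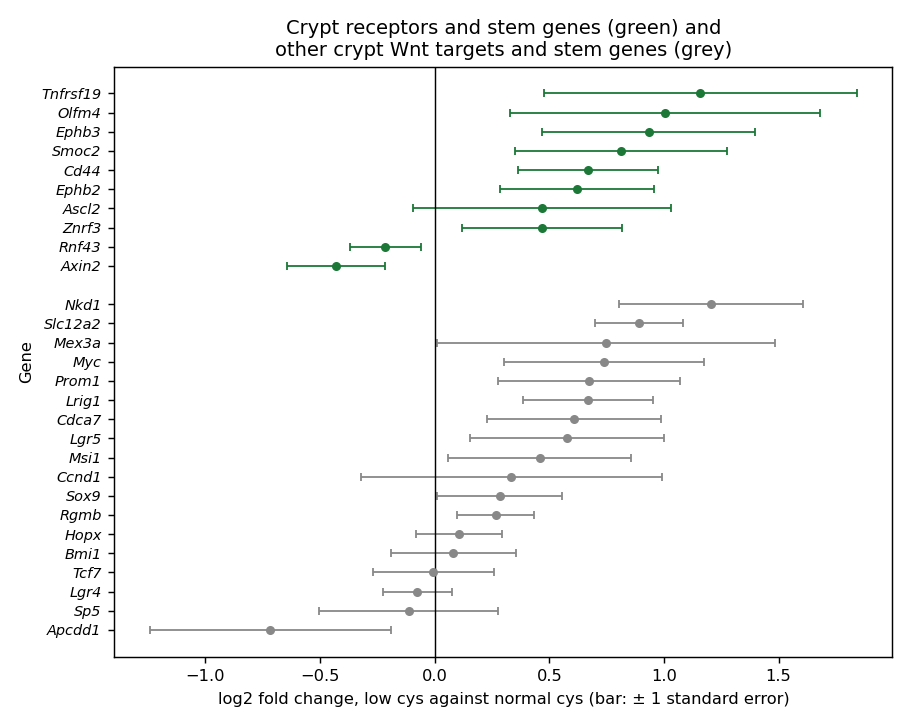
Log2 fold change between the diets (low cys against normal cys) of the 10 crypt genes (green) and of 18 other crypt Wnt targets and stem genes (grey), with bars of 1 standard error from edgeR. Of the 10 genes, 8 lie above 0 and Rnf43 (-0.22) and Axin2 (-0.43) below it; Slc12a2 (0.89) has one of the shorter bars in the grey set.

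Per kilobase of counted exon, the mean level over the 7 libraries was highest for Axin2 (14.8 CPM per kb), followed by Olfm4 (11.6), Smoc2 (3.58), Rnf43 (3.56), Cd44 (1.33), Ephb2 (1.26), Ascl2 (0.779), Ephb3 (0.579), Znrf3 (0.436) and Tnfrsf19 (0.121). Between the diet means the order at the top turned, as Axin2 stood at 16.7 and Olfm4 at 8.14 CPM per kb on the normal cys diet but at 12.4 and 16.3 on the low cys diet. Likewise, the means of Smoc2 and Rnf43 stood at 2.71 and 3.78 CPM per kb on the normal cys diet and at 4.75 and 3.26 on the low cys diet. Over all libraries, the ranges of neighbours were separate only between Rnf43 and Cd44 and between Znrf3 and Tnfrsf19. Within libraries, Olfm4 was above Smoc2 in all 7, Ephb2 above Ascl2 in 6, and Cd44 above Ephb2, Ascl2 above Ephb3 and Ephb3 above Znrf3 in 5 each. Smoc2 was above Rnf43 in 3 (normal cys 1, low cys 1 and low cys 3). The level of Olfm4 ran from 2.56 to 22.0 CPM per kb against 9.87 to 22.3 for Axin2. Axin2 was above Olfm4 in 5 of the 7 libraries, all but low cys 1 and low cys 3, and low cys 1 held both the highest Olfm4 and the lowest Axin2.

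To show how the 10 genes varied together, log2 CPM was centred on each gene's mean and averaged over the genes within a library. The mean was 0.37, -0.0026, -0.41 and -1.06 in normal cys 1 to 4 and 0.54, 0.0028 and 0.56 in low cys 1 to 3. Low cys 1 and 3 were highest, with the highest level of 5 and 3 of the 10 genes, and normal cys 4 was lowest. Normal cys 1 lay nearer to low cys 1 and 3 than to the other normal cys libraries, and low cys 2 nearer to normal cys 2. The average of the group was -0.28 ± 0.61 on the normal cys diet and 0.37 ± 0.32 on the low cys diet (SD). Without normal cys 4 the median log2 fold change of the 10 genes was 0.43 in place of 0.64.

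The markers of proliferating cells and of Paneth cells, which sit between the stem cells at the crypt base, moved with the same libraries. All 12 proliferation genes were tested and had a higher estimate on the low cys diet, with 0 at an unadjusted edgeR p-value under 0.05 and a median log2 fold change of 0.61. Their summed level was 418, 318, 185 and 151 CPM in normal cys 1 to 4 and 477, 258 and 411 CPM in low cys 1 to 3. Per kilobase, Pcna was the most abundant of them (20.7 CPM per kb), and no gene of the list was at 0 in any library. Of 8 Paneth cell genes tested, 7 had a higher estimate (against 51.2% of all genes tested) and 1 a lower one. Of these 8, 0 had an unadjusted edgeR p-value under 0.05, against the same shares. Their summed level was 4692, 2417, 2346 and 724 CPM in normal cys 1 to 4 and 4850, 2834 and 5111 CPM in low cys 1 to 3, with Defa24 the most abundant per kilobase (2318 CPM per kb) and no gene at 0. As for the crypt genes, low cys 1, low cys 3 and normal cys 1 were the high libraries of both lists and normal cys 4 the lowest. The diets overlapped in every gene of both lists.

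The markers of enterocytes lay the other way, with 1 of 11 genes higher (against 51.2% of all genes tested) and 10 lower on the low cys diet. The higher estimate was that of Slc10a2 (log2 fold change 0.20), and that of Fabp6 was -0.42. The summed level of the 11 genes was 32072, 35510, 55485 and 55820 CPM in normal cys 1 to 4 and 17080, 32264 and 34882 CPM in low cys 1 to 3. Normal cys 3 and 4, which had the highest summed level of these genes, were the libraries with the lowest mean of the crypt genes. Fabp2 (14495 CPM) and Apoa1 (9406 CPM) had the largest means in this sum on the normal cys diet. Per kilobase, Fabp2 was the most abundant gene of the list on the normal cys diet (15021 CPM per kb) and Fabp6 on the low cys diet (8413 CPM per kb), and none was at 0. Apoa1 (log2 fold change -0.79) and Krt20 (-0.41) were lower at unadjusted edgeR p-values of 0.024 and 0.0493, and 2.83% of all genes tested were lower under 0.05. In Vil1 and Krt20 the low cys libraries lay all below the normal cys libraries, against 3.51% of all genes tested. The unadjusted edgeR p-value of Apoa1 was above 0.05 without normal cys 3 (0.0552), normal cys 4 (0.0546), low cys 1 (0.0908) or low cys 2 (0.0653). That of Krt20 was above 0.05 without normal cys 1 (0.112), normal cys 3 (0.0951), low cys 1 (0.179), low cys 2 (0.0781) or low cys 3 (0.0684). It was also above 0.05 with total counts in place of TMM (0.133, at a log2 fold change of -0.27) and with at least 10 counts in every library (0.0545). The part of the proliferation, Paneth cell and enterocyte markers in the levels of the crypt genes was not tested.

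**Figure D3:**
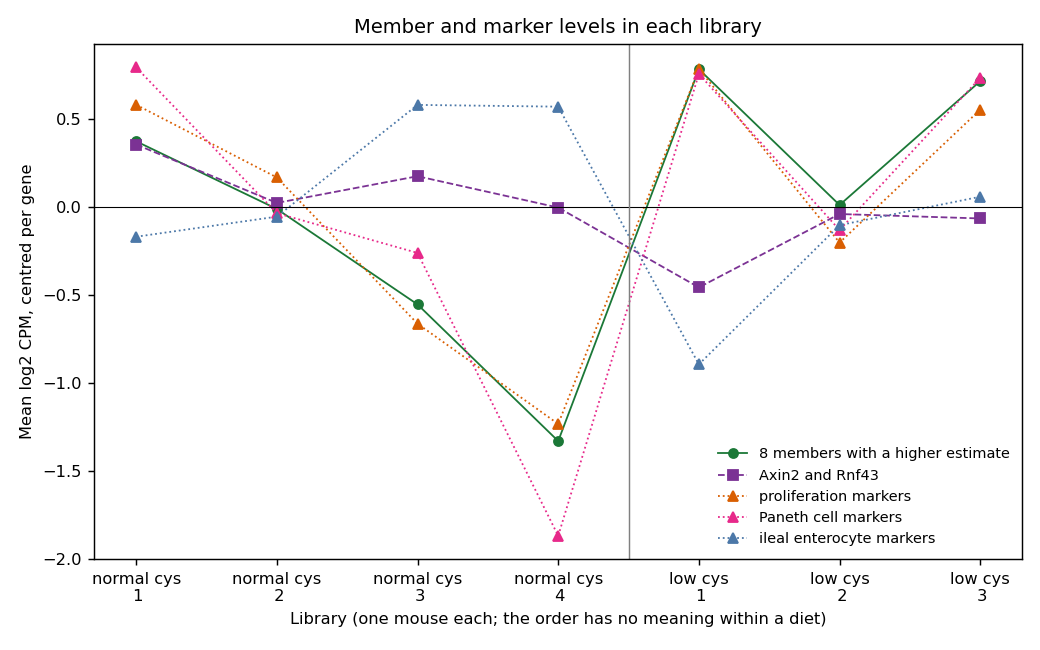
Mean log2 CPM, centred per gene, in each of the 7 libraries for the 8 crypt genes with a higher estimate, for Axin2 and Rnf43, and for the proliferation, Paneth cell and ileal enterocyte markers; lines only join the points of a list. The 8 genes are lowest in normal cys 4 (-1.33) and highest in low cys 1 (0.79), near the proliferation markers (-1.23 and 0.79). Axin2 and Rnf43 are lowest in low cys 1 (-0.46). The crypt genes were split by the sign of their own estimate. This partly fixes that the 8 genes run higher, and Axin2 and Rnf43 lower, in the low cys libraries. The mean of all crypt genes, not split, is -1.06 in normal cys 4, 0.54 in low cys 1 and highest in low cys 3 (0.56).

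Markers of fibroblasts and smooth muscle were also measured. All 8 fibroblast and stroma genes tested had a higher estimate, against 51.2% of all genes tested. Of the 8 genes, 2 (Dcn and Col3a1) were higher at an unadjusted edgeR p-value under 0.05, against 2.66%, and Vim was the most abundant per kilobase (3.84 CPM per kb). Their summed level was 31.4, 27.0, 25.7 and 33.0 CPM in normal cys 1 to 4 and 41.1, 45.4 and 39.7 CPM in low cys 1 to 3, so that the diets did not overlap in the sum. In Dcn and Col3a1 the low cys libraries also lay all above the normal cys libraries, against 3.32% of all genes tested. Lum was at 0 in normal cys 4. All 6 smooth muscle genes also had a higher estimate, against 51.2% of all genes tested. The diets overlapped in each of the 6, and no gene was at 0. Des (log2 fold change 1.89) and Actg2 (2.11) were higher at an unadjusted edgeR p-value under 0.05, against 2.66% of all genes tested. Per kilobase, Tagln was the most abundant of the 6 genes on the normal cys diet (0.974 CPM per kb) and Acta2 on the low cys diet (2.15 CPM per kb). The summed level of the 6 genes was 12.1, 7.31, 4.57 and 2.34 CPM in normal cys 1 to 4 and 5.63, 38.2 and 14.4 CPM in low cys 1 to 3, so that normal cys 4 was the lowest library here as for the mean of the crypt genes. Low cys 2, with the highest level of both lists, was the low cys library with the least Ephb2, Ephb3, Cd44, Znrf3, Ascl2, Smoc2 and Olfm4. The unadjusted edgeR p-values of Des and Actg2 were 0.187 and 0.398 without low cys 2, 0.0683 and 0.0798 without normal cys 2, and 0.073 and 0.0907 without normal cys 3. Their log2 fold changes were 1.16 and 0.75 without low cys 2, 1.92 and 2.13 without normal cys 2, and 1.80 and 1.87 without normal cys 3. For Actg2 the unadjusted edgeR p was also 0.0942 without normal cys 4 (log2 fold change 1.82) and 0.0502 without a filter on low counts (2.09). With limma-voom the log2 fold change of Actg2 was 1.55, at an unadjusted p of 0.147. Whether these cells took part in the levels of the crypt genes was not tested.

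The remaining marker lists gave 3 higher and 4 lower estimates in 7 goblet cell genes, 3 higher and 5 lower in 8 tuft and enteroendocrine genes, 3 higher and 5 lower in 8 leukocyte genes and 5 higher and 0 lower in 5 endothelial genes. Over all genes tested, 51.2% had a higher estimate. At an unadjusted edgeR p-value under 0.05 there was 1 gene among these 4 lists, against 2.66% of all genes tested higher and 2.83% lower. This was the enteroendocrine gene Gcg, which was higher (log2 fold change 0.80, SE 0.23, unadjusted p = 0.00647 with edgeR). Gcg was also the only gene of these lists whose diets did not overlap, against 3.32% of all genes tested higher and 3.51% lower. The summed level of the endothelial genes was 8.46, 6.86, 7.04 and 6.45 CPM in normal cys 1 to 4 and 12.7, 9.44 and 8.96 CPM in low cys 1 to 3, with normal cys 4 lowest and low cys 1 highest. The diets did not overlap in this sum, though they did in each of the 5 endothelial genes. Lyve1 was the most abundant of them per kilobase (1.80 CPM per kb), Kdr was at 0 in normal cys 4, and the part of these cells in the levels of the crypt genes was not tested.

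Outside the 10 genes, the tested genes whose centred log2 CPM over the 7 libraries came closest to the mean of the 10 were Gm9800, Dkc1, Dbf4, Noc2l and Abcc1, with root mean square differences of 0.0678, 0.0739, 0.0782, 0.0812 and 0.0925 log2 units. The median of this difference was 0.606 over the 14859 tested genes outside the 10 and 0.426 over the 10 genes themselves. Each of the 10 genes is part of the mean it was compared with, so the lower value is partly fixed. Dkc1, which encodes a protein of small nucleolar particles, stood at 13.7, 10.5, 7.31 and 4.40 CPM in normal cys 1 to 4 and at 14.7, 9.75 and 16.0 CPM in low cys 1 to 3. Dbf4, which encodes the activator of a kinase of DNA replication, stood at 12.0, 7.95, 5.94 and 3.92 CPM in normal cys 1 to 4 and at 13.1, 8.50 and 12.4 CPM in low cys 1 to 3. Both are lowest in normal cys 4 and highest in low cys 1 or 3, a likeness to the mean of the 10 that their selection fixed.

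Little of the sequence of the 10 genes is shared with other genes. Of the stretches of 50 bases in the GENCODE transcripts of Olfm4, 3.55% also occur in transcripts of Gm6999, and for each of the other 9 genes at most 0.19% occur in transcripts of another gene. These transcripts can reach beyond the exons that were counted. Olfm4 spans 79984081 to 80023139 in GENCODE but was counted from 80000302 to 80021930. Smoc2 has 6939 such stretches against 2832 counted exon bases. Axin2 shares 209 bases of exon (3.8% of its exon bases) with Gm11670 on the opposite strand, which had at most 2 counts in a library. The strand setting of the counting is not given in the sources used here, so reads of this stretch cannot be told apart between the pair.

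Promoter windows of 300 bases around a RefSeq transcript start (GRCm38) were found for 8 of the 10 genes, all but Znrf3 and Smoc2, in 10 windows. The letters CTTTGAA and CTTTGAT, at the core of TCF/LEF motifs, were searched on both strands. A match occurred in 1 of these 8 genes, against 9.88% of the 27025 genes with a window, and it lay before a start of Tnfrsf19 inside the gene. This stretch, at chr14:61038168-61038204 on the minus strand, is shown with the match in capitals (CTTTGAT read on the opposite strand, 202 bases before that start).
Tnfrsf19: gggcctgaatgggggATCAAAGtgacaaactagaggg

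The primers used in the study for qRT-PCR of 3 of the 10 genes show which parts of the transcripts that assay reads. The counts cover all exons that the authors' annotation gives to a gene. They are given 5′ to 3′, and all match coding sequence in GENCODE transcripts (GRCm38). The Olfm4 pair lies in neighbouring exons on chromosome 14, at 80011908 to 80011928 and 80014202 to 80014223. The forward Axin2 primer spans the junction of exons 4 and 5 (chromosome 11, 108939406 to 108941913) and the reverse primer lies in exon 6 (108942196 to 108942215). Both Ascl2 primers lie in exon 2 (chromosome 7, 142968465 to 142968482 and 142968233 to 142968252).
Olfm4 forward: tgaaggagatgcaaaaactgg
Olfm4 reverse: ctccagcttctctaccaagagg
Axin2 forward: cattttccgagaacccaccg
Axin2 reverse: gctcagacccctccttttct
Ascl2 forward: actcatgcccacctcgtc
Ascl2 reverse: cgtctccaccttactcagct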

How the data were processed

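The authors made poly(A)-selected stranded libraries, trimmed the reads, removed ribosomal reads, aligned the rest to GRCm38 with STAR and counted them on exons with featureCounts, and deposited the raw count of each gene in each library. The exon length used per kilobase is the length column the authors deposited. How reads with several matches were counted is not given in the sources used here. Libraries were grouped by the diet in their labels, and replicates carry no pairing and no stated batch. No pair of libraries agreed within sampling noise. The filter on low counts was filterByExpr of edgeR 4.0.16, with a minimum of 10 counts and of 15 in total, and library sizes were scaled by TMM. Diets were compared in R 4.3.3 with edgeR's quasi-likelihood F-test in its robust form, and the Benjamini-Hochberg adjustment ran over every gene tested. The standard error is the log2 fold change divided by the root of F, and log2 CPM used a prior count of 2. The scripts were tested on simulated data. As alternatives, DESeq2 1.42.0, voom of limma 3.58.1, other scalings and filters and leaving out each library were run. From each companion list the genes named are those at an unadjusted p-value under 0.05, and otherwise up to 3 with the highest mean level. Marker genes were named by the same p-value, for the highest level per kilobase in their list, for diets that did not overlap, or for a count of 0 in a library. Slc10a2, Fabp6, Fabp1 and Apoa4 were named after their values were seen. The alike genes named are the 5 closest, of which Dkc1 and Dbf4 were picked for description after their values were seen. The count ratios were added after seeing the data. Defa30, Jchain and Adgre1 are not among the gene names of the table and were not analysed here. The 10 genes and all lists were chosen with earlier results of these data known.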

Additional observations from a re-analysis of the deposited data

Results flagged for a closer look

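In Cd44, normal cys 4 stood far below the other normal cys libraries (3.73 CPM against 7.89 to 8.72), with a gap to its nearest neighbour of 0.833 of the group's range. In Tnfrsf19, normal cys 1 stood far above the others (0.993 CPM against 0.0955 to 0.227), with a gap of 0.853 of the range, on 19 counts against 2 to 5. Both gaps exceed the 95% critical value of Dixon's test for 4 libraries. Chance alone gives about 1 in 20 such groups, or 1.15 of the 23 tested here, so 2 is near that number. The low cys group, with 3 libraries, was not tested in this way.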

How the results depend on the processing

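Each of the 10 genes kept the direction of its estimate under every alternative in which it was tested. Of 128 values, 110 stayed above an unadjusted p-value of 0.05 as in the edgeR test, 18 fell below it and 0 reversed. DESeq2, run on 22796 genes without the filter, gave 16 genes at an adjusted p-value under 0.05, and leaving out 1 library gave 0 to 1. The number at an unadjusted p-value under 0.05 was 817 and ranged from 258 (without low cys 1) to 1763 (without normal cys 1, 11.9% of the genes tested there). Of the 10 genes, 2 were higher at an unadjusted p-value under 0.05 with DESeq2 (Ephb3 and Cd44, against 2% of all genes), 1 with total counts in place of TMM (Cd44, against 6.13%), 1 without a filter (Cd44, against 2.38%) and 4 with limma-voom (Ephb3, Cd44, Tnfrsf19 and Olfm4, against 3.5%). Leaving out 1 library gave 0 to 5, with 5 without normal cys 1 (Ephb2, Ephb3, Tnfrsf19, Smoc2 and Olfm4), against 1.16% to 6.3% of all genes. Without a filter 1 was lower (Axin2, against 2.5%), and leaving out 1 library gave 0 to 1, against 0.551% to 5.63%. Genes of the 10 whose diets did not overlap numbered 0 to 5 higher (5 without low cys 2) and 0 to 1 lower when 1 library was left out. Without low cys 2 the same held for 11.6% of all genes tested (higher) and 8.05% (lower). Without normal cys 1 it held for 2 of the 10 (higher), against 8.58% of all genes tested. Without low cys 3 it held for 1 (lower), against 5.81%. Over the runs without 1 library, the share of all genes ran from 4.16% to 11.6% higher and from 4.2% to 9.39% lower. The causes of these changes were not tested. The median log2 fold change of the 10 ranged from 0.43 (without normal cys 4) to 0.84 (without normal cys 2). Scaling by total counts raised the median of all genes by 0.14 log2 units, and that of the 10 to 0.79, which is 0.63 above all genes. With at least 10 counts in every library, Tnfrsf19 and Ascl2 were not tested. Chosen after seeing the data, the same alternatives were run for the companion and marker genes named at an unadjusted p-value under 0.05, and 0 of them reversed. Slc12a2, Gcg, Col3a1 and Dcn stayed under 0.05 in all 13. Depth limits Tnfrsf19 (2 to 26 counts) and Ascl2 (6 to 41 counts) most.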
